A study of Bos taurus with 6 samples.

Results

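The forkhead genes encode transcription factors that bind DNA through a shared winged-helix domain. They were taken here as every listed gene whose symbol is FOX followed by a subfamily letter from A to S and a number. This rule used names only and found 38 of the 32183 genes listed, spread over 18 lettered subfamilies. FOXC1, FOXO6 and FOXQ1 were not analysed here. The members do very different things in a cell. FOXM1 drives the genes of G2 and mitosis in dividing cells. FOXO factors switch on arrest, stress and catabolic genes and are held in the cytoplasm when AKT phosphorylates them. FOXA factors open closed chromatin in endodermal and other epithelia, FOXP factors mostly repress, FOXF and FOXC2 mark mesenchyme, and FOXJ1 switches on the genes of motile cilia. In stratified epithelia such as the rumen lining, cells stop dividing as they leave the basal layer and differentiate.

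RNA was sequenced from rumen epithelial primary cells (REPC), the cells that line the first stomach of cattle, grown in culture from a Holstein bull calf aged 2 weeks and fed milk replacer only. A group of 3 cultures received 5 mM butyrate for 24 h, and 3 control cultures did not. Butyrate is a short-chain fatty acid made by rumen microbes, which cells burn as fuel and which also inhibits histone deacetylases. The comparison asks how expression in these cells changes with butyrate. The methods call the 3 cultures of a condition biological replicates, but the cells came from 1 calf, so the p-values measure the spread between these cultures only and not between animals.

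Expression was given as FPKM, fragments scaled to transcript length and to the size of the library. Levels of different genes can then be set side by side, as far as the transcript lengths used are right. The confidence bounds of the FPKM imply between 5756609 and 6186809 fragments per culture, which is an approximation, and intervals made from such fragments cover counting error only. A control culture had 16051 to 16193 genes above 0, and a butyrate culture had 17306 to 17510. Pearson's r of log2(FPKM + 1) across all listed genes was 0.9948 to 0.9955 between cultures of a group and 0.9626 to 0.9663 between groups, and genes are not independent replicates. The cultures carried keratins of epithelium, with control means of 1380 FPKM for KRT8, 492 FPKM for KRT19 and 401 FPKM for KRT5, and the adhesion genes CDH1 (49.8 FPKM) and DSG2 (44.5 FPKM), while EPCAM was at 0.54 FPKM. They also carried markers of mesenchyme and contractile cells, with control means of 2464 FPKM for VIM, 1149 FPKM for COL1A1 and 2752 FPKM for ACTA2. The leukocyte gene PTPRC, the T cell gene CD4 and the endothelial gene CDH5 were listed at 0 in all 6 cultures, but other markers of those cells were present at low levels, with control means of 5.57 FPKM for CD14, 0.595 FPKM for CD68, 1.54 FPKM for PECAM1 and 0.456 FPKM for VWF. Of these CD68, PECAM1 and VWF were called higher after butyrate, as was the T cell gene CD3D (0.0449 and 1.33 FPKM). CD3D, under 0.1 FPKM in control, entered the test described below through the butyrate cultures.

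A gene was tested where its mean over the 6 cultures was at least 0.1 FPKM, which 23 of the 38 forkhead genes reached. Fold changes are differences of log2(FPKM + 0.1), butyrate minus control, and the added 0.1 shrinks the change of genes near that level. They were tested with limma, and a gene was called higher or lower at a Benjamini-Hochberg adjusted p under 0.05 over the 15813 genes tested. Among the tested forkhead genes 12 were higher after butyrate, 2 were lower and 9 did not pass. The same call was made for 32.5% of all genes tested in the higher direction and for 25.9% in the lower direction, against 52.2% and 8.7% of the tested forkhead genes. Under quantile normalization 9 were higher and 3 lower. Because 5 of the 23 (FOXF1, FOXF2, FOXM1, FOXN1 and FOXO4) had a mean under 0.1 FPKM in 1 of the groups, they entered the test through the group where they were higher. Of the other 18, 9 were higher and 1 was lower. With the stricter thresholds of the study, a p under 0.05 after Bonferroni correction together with a log2 fold change beyond 2, FOXM1 was called lower and 0 forkhead genes were called higher in limma, where 13 were higher at an unadjusted p under 0.05. These thresholds called 2.46% of all genes tested higher and 1.51% lower. The median log2 fold change was 0.48 over the tested forkhead genes and 0.10 over all genes tested.

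**Figure D1:**
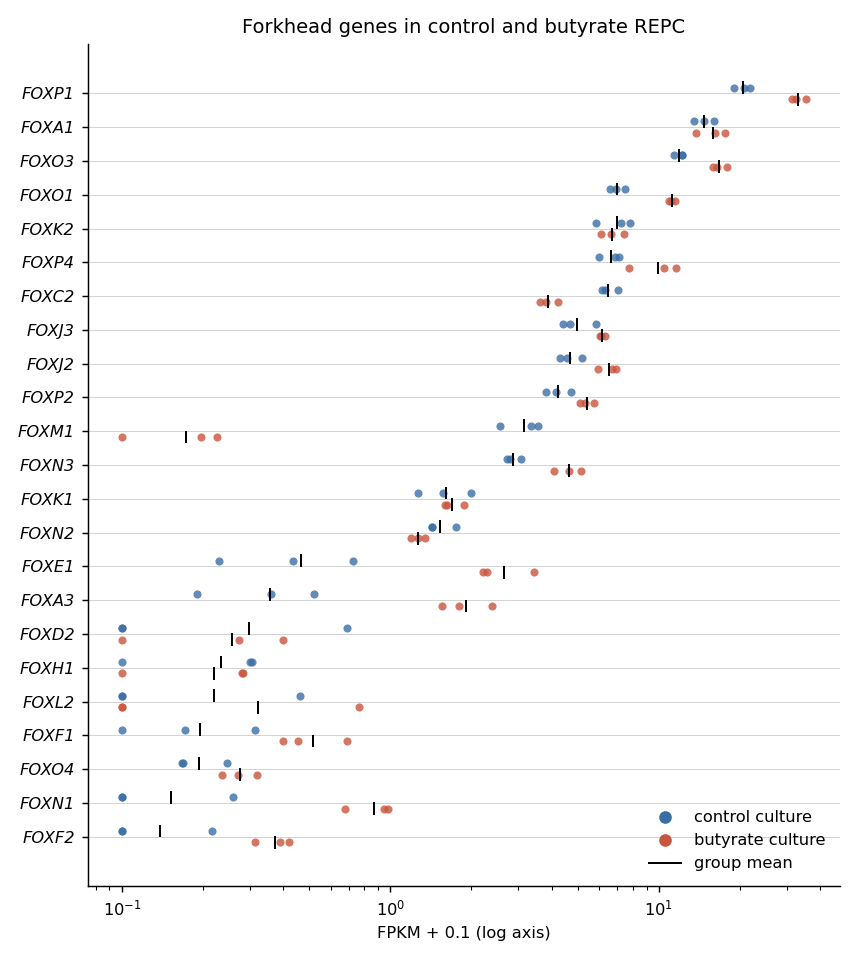
Level of each tested forkhead gene in every culture, as FPKM + 0.1 on a log axis, with control cultures in blue, butyrate cultures in red, group means as black bars and genes ordered by control mean; a point at 0.1 is an FPKM of 0. FOXP1 was the highest in both groups, the 3 butyrate points of FOXM1 lay far below its control points, and those of FOXE1, FOXA3 and FOXN1 lay far above theirs.

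FOXM1, the activator of late cell cycle genes (chromosome 5, 107384357 to 107398326, build UMD3.1 in the submitters' processing notes, as for all positions given), had the largest change of the family. Its level was 2.46, 3.24 and 3.45 FPKM in control cultures 1 to 3 and 0, 0.126 and 0.0966 FPKM in butyrate cultures 1 to 3. All 3 butyrate cultures were below every control culture, and the gene was listed at 0 in the first of them. The fall was 4.25 on the log2 scale, with a log2 fold change of -4.25 ± 0.37 (SE, limma, adjusted p = 1.71e-05). The FPKM bounds imply about 159 fragments over the control cultures and 2 over the butyrate cultures, a ratio of 78.8 at equal depth with an exact 95% counting interval of 21.5 to 657. The ratio of mean FPKM, control to butyrate, was smaller, at 41.1. In bulk RNA, fewer cells of a type and less RNA per cell cannot be told apart. Its Bonferroni-corrected p of 0.0307 in limma lay close to the threshold. The stricter call was lost, with 0 forkhead genes left, at either other pseudocount, without the filter, without the trend, after rescaling to TPM, in the fit with the replicate block, and when butyrate culture 2 or 3 or any control culture was left out. The Benjamini-Hochberg call of FOXM1 held in these and in the other alternatives run, with adjusted p from 3.03e-06 to 0.00107.

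Genes that FOXM1 is known to activate, and the MuvB complex proteins and MYBL2 that act with it, were mostly lower too. Of the 25 genes in this list, all tested, 24 were lower and 0 were higher in limma, with 0 higher also at an unadjusted p under 0.05. After TPM rescaling 23 were lower. With the stricter thresholds 19 were lower. Of all genes tested, 25.9% were lower, and 1.51% by the stricter thresholds. The part of FOXM1 in these changes was not tested. The median log2 fold change was -3.86. Their summed FPKM was 755 to 781 in the control cultures and 61.3 to 64 in the butyrate cultures, so the range of the butyrate cultures lay wholly below that of the controls. CCNB2, a cyclin of mitotic entry, was at 36, 37 and 38.7 FPKM in control and 0.306, 0.361 and 1.08 FPKM after butyrate, a log2 fold change of -5.95 ± 0.35 (SE). CDC20, an activator of the anaphase-promoting complex, went from 74.5, 80.5 and 78.4 FPKM to 1.17, 1 and 1.54 FPKM, a log2 fold change of -5.89 ± 0.14. KIF20A, a kinesin of cell division, had 36.3, 35.3 and 37 FPKM in control and 0.626, 0.591 and 0.938 FPKM after butyrate, with a log2 fold change of -5.50 ± 0.17. Groups did not overlap for any of these genes. LIN52, a MuvB subunit named because it alone did not pass, had a log2 fold change of -0.22 (limma, adjusted p = 0.226). The MuvB subunit LIN37 was lower by little, with a log2 fold change of -0.34 ± 0.12 (limma, adjusted p = 0.0341).

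FOXO3 and FOXO1 rose, by less than FOXM1 fell, and FOXO4 did not pass. FOXO3 (chromosome 9, 41989614 to 42119998) was measured at 12.1, 12.1 and 11.3 FPKM in control cultures 1 to 3 and at 17.8, 16.4 and 15.8 FPKM in butyrate cultures 1 to 3, so that each butyrate culture was above each control. Its log2 fold change was 0.49 ± 0.08 (SE, limma, adjusted p = 0.000913). FOXO1 (chromosome 12, 21915295 to 22009081) was at 6.47, 6.84 and 7.41 FPKM in control and 11, 11.4 and 10.8 FPKM after butyrate, again without overlap, a log2 fold change of 0.68 ± 0.10 (limma, adjusted p = 0.000337). The level of FOXO3 was 1.86, 1.77 and 1.53 times that of FOXO1 in the control cultures. After butyrate it was 1.62, 1.43 and 1.47 times, and these ranges overlapped. The FPKM bounds imply about 319 control fragments for FOXO3 and 1167 for FOXO1, so these ratios depend on the transcript lengths used. FOXO4, on the X chromosome, was low throughout, with 0.0675, 0.146 and 0.0694 FPKM in control and 0.137, 0.219 and 0.171 FPKM after butyrate. Its groups overlapped and the difference did not pass (log2 fold change 0.52, 95% interval -0.43 to 1.46, limma, adjusted p = 0.311). Its sign was negative under quantile normalization. Since FOXO proteins are controlled mainly by phosphorylation and nuclear export, their RNA does not measure their activity.

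Genes that FOXO factors are known to activate were tested on 23 rows, with SOD2 listed on separate rows. Of these, 15 were higher, 3 were lower and 5 did not pass, and their log2 fold changes had a median of 0.81. The shares over all genes tested were 32.5% higher and 25.9% lower, and the median there was 0.10. The part of FOXO factors in these changes was not tested. TNFSF10 was listed at 0 in every culture, and TRIM63 was too low to test. ERBB3, a growth factor receptor, had 0.142, 0.0851 and 0.0967 FPKM in control and 2.01, 1.36 and 1.21 FPKM after butyrate, a log2 fold change of 2.95 ± 0.32 (SE, limma, adjusted p = 6.29e-05). TXNIP, an inhibitor of thioredoxin and of glucose uptake, went from 17.2, 17.6 and 17.9 FPKM to 82.4, 87.8 and 87 FPKM, a log2 fold change of 2.28 ± 0.06 (limma, adjusted p = 3.19e-08). CITED2, a transcriptional coregulator, went from 64, 59.6 and 60.3 FPKM to 177, 208 and 180 FPKM, a log2 fold change of 1.61 ± 0.07. In all of these genes the butyrate cultures lay above every control culture. The antioxidant gene SOD2 fell on both of its rows, by 0.80 and by 0.51 on the log2 scale. Only uniquely mapped reads were kept, so any reads that match both rows would not be counted. CDKN1B, the cell cycle inhibitor p27, had a log2 fold change of -0.44 ± 0.16 (limma, adjusted p = 0.0419), a call that was lost in 9 of the alternatives run. These included TPM rescaling (limma, adjusted p = 0.124), the replicate block (0.0519) and leaving out butyrate culture 2 or 3 (0.0953 and 0.128) or control culture 1, 2 or 3 (0.0819, 0.108 and 0.076).

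The kinases, 14-3-3 proteins, exportin and other enzymes that set where FOXO proteins sit in the cell form a list of which 24 genes were tested. Of these 9 were higher, 7 were lower and 8 did not pass, with a median log2 fold change of -0.03. These counts lie near the shares of all genes tested, 32.5% higher and 25.9% lower, and are no result about the list. The PI3K catalytic subunit PIK3CD rose from 0.575, 0.273 and 0.043 FPKM to 3.27, 2.46 and 3.1 FPKM (log2 fold change 3.19 ± 0.51 SE, limma, adjusted p = 0.000679). SGK1, a kinase related to AKT, rose from 22.1, 19.4 and 22.6 FPKM to 56, 69.8 and 57.5 FPKM (log2 fold change 1.51 ± 0.10, adjusted p = 3.33e-06). Among the lower genes, the deacetylase SIRT1 fell by 1.03, the nuclear exporter XPO1 by 1.02 and the PI3K subunit PIK3CA by 1.00 on the log2 scale. SGK2 was too low to test.

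**Figure D2:**
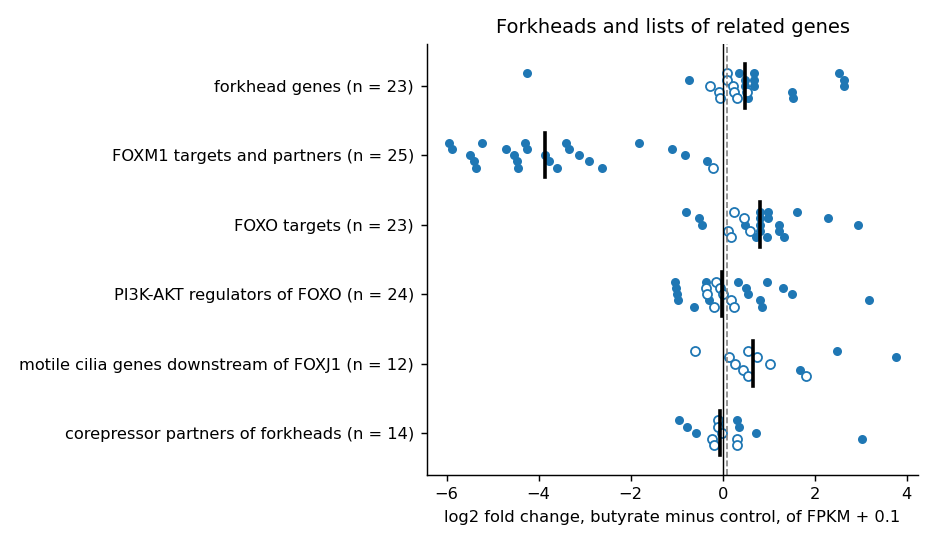
Log2 fold change (butyrate minus control, of FPKM + 0.1) of each tested forkhead gene and of each tested row in lists of genes related to forkheads; filled points passed the adjusted p, open points did not, black bars are medians and the dashed line is the median of all genes tested. The median of the FOXM1 list was -3.86 and that of the FOXO target list 0.81, while the lists of FOXO regulators and corepressors had medians of -0.03 and -0.06.

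FOXP1, a repressor of the FOXP subfamily (chromosome 22, 30179791 to 30803699), had the highest level of any forkhead in both groups. Its FPKM was 19, 21.7 and 20.7 in control cultures 1 to 3 and 35.3, 32.4 and 31.2 in butyrate cultures 1 to 3. The groups were well apart, with a log2 fold change of 0.69 ± 0.08 (SE, limma, adjusted p = 9.31e-05). FOXP1 made up 19.1% to 22.2% of the summed forkhead FPKM in control and 25.4% to 26.0% after butyrate. FOXP4 averaged 6.56 ± 0.592 FPKM (SD, n = 3) in control and 9.84 ± 1.98 FPKM after butyrate, a log2 fold change of 0.56 ± 0.16 (limma, adjusted p = 0.0149). FOXP2, known for its role in vocal learning and also expressed in airway and gut epithelium, averaged 4.11 ± 0.451 and 5.29 ± 0.323 FPKM, a log2 fold change of 0.36 ± 0.13 (limma, adjusted p = 0.0433). The call of FOXP2 was the weakest of the subfamily and was lost in 8 of the alternatives, the replicate block (adjusted p = 0.0569) and quantile normalization (0.163) among them. Leaving out any culture but control culture 2 also ended it (limma, adjusted p = 0.0844, 0.119 and 0.0641 without butyrate cultures 1 to 3, and 0.12 and 0.0939 without control cultures 1 and 3). That of FOXP4 was lost when butyrate culture 1 or 3 or control culture 2 was left out (adjusted p = 0.0562, 0.0597 and 0.053). FOXP3, the factor of regulatory T cells, reached 0.141 FPKM in control culture 2 and was too low to test.

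Of 14 corepressors that forkhead proteins recruit 4 were higher, 3 were lower and 7 did not pass, with a median log2 fold change of -0.06. These counts lie near the shares of all genes tested, 32.5% higher and 25.9% lower, and are no result about the list. The Groucho-type corepressor TLE2 went from 0.973, 1.14 and 0.653 FPKM to 7.4, 7.93 and 8.77 FPKM, a log2 fold change of 3.02 ± 0.21 (SE, limma, adjusted p = 4.56e-06). Its relative TLE1 was at 6.2, 8.16 and 8.57 FPKM in control and 12, 13.5 and 12.4 FPKM after butyrate, a log2 fold change of 0.73 ± 0.13, and SIN3A had a log2 fold change of 0.35 ± 0.12 (limma, adjusted p = 0.039). AES, a short relative of the TLE proteins, fell by 0.96, CTBP1, a partner of FOXP proteins, by 0.77, and BAP1, a partner of FOXK proteins, by 0.57 on the log2 scale. The call of SIN3A was lost in 7 of the alternatives, the replicate block among them (adjusted p = 0.0669), and without butyrate culture 1, 2 or 3 (0.0981, 0.0737 and 0.0695) or control culture 1 or 3 (0.0661 and 0.11).

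Within the FOXA subfamily FOXA3 rose and FOXA1 did not pass. FOXA1, a pioneer factor of endodermal and glandular epithelia, was the second highest forkhead in control, with 15.9, 14.6 and 13.4 FPKM, and had 17.6, 16.1 and 13.6 FPKM after butyrate. These groups overlapped, and the log2 fold change of 0.10 had a 95% interval of -0.16 to 0.36 (limma, adjusted p = 0.468). FOXA3, its relative known from liver and gut (chromosome 18, 53834506 to 53841047), was at 0.419, 0.0912 and 0.26 FPKM in control and at 1.46, 2.29 and 1.7 FPKM after butyrate. Every butyrate culture was above every control culture, with a log2 fold change of 2.52 ± 0.40 (SE, limma, adjusted p = 0.000644). FOXA1 was 38, 160 and 51.6 times as high as FOXA3 in the control cultures and 12.1, 7.04 and 7.98 times as high after butyrate, and these ratios did not overlap. The control ratios rest on about 4, 0 and 2 implied fragments of FOXA3, so they are imprecise. FOXA2 was at most 0.247 FPKM and was not tested.

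FOXE1, a factor of thyroid, oesophagus and hair follicle (chromosome 8, 63509624 to 63512114), had 0.13, 0.627 and 0.333 FPKM in control and 2.12, 3.32 and 2.19 FPKM after butyrate. The groups were far apart, with a log2 fold change of 2.63 ± 0.42 (SE, limma, adjusted p = 0.000679). FOXN1, which acts in thymic epithelium and in the early differentiation of keratinocytes (chromosome 19, 20535027 to 20562768), was at 0, 0 and 0.159 FPKM in control and at 0.877, 0.577 and 0.845 FPKM after butyrate. It was listed at 0 in control cultures 1 and 2 and reached at least 0.577 FPKM in all 3 butyrate cultures. The log2 fold change was 2.64 ± 0.47 (limma, adjusted p = 0.00134). The FPKM bounds imply 1 fragment of FOXN1 over the control cultures and 50 over the butyrate cultures, a ratio of 50.4 with an exact 95% counting interval of 8.64 to 2031. The ratio of its mean FPKM was smaller, at 14.4. The calls of FOXA3, FOXE1 and FOXN1 held under each alternative in which they were tested. Most tested markers of epithelium were also higher. Of 15 tested markers 12 were higher, 1 (KRT5) was lower and 2 (CDH1 and DSP) did not pass. Of all genes tested, 32.5% were higher and 25.9% lower. The summed FPKM of the list was 2496 to 2603 in control and 5201 to 5320 after butyrate. KRT19 had the largest rise in FPKM of the list, with means of 492 and 1953. No marker was at 0 in all cultures. The part of these markers in the forkhead changes was not tested.

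**Figure D3:**
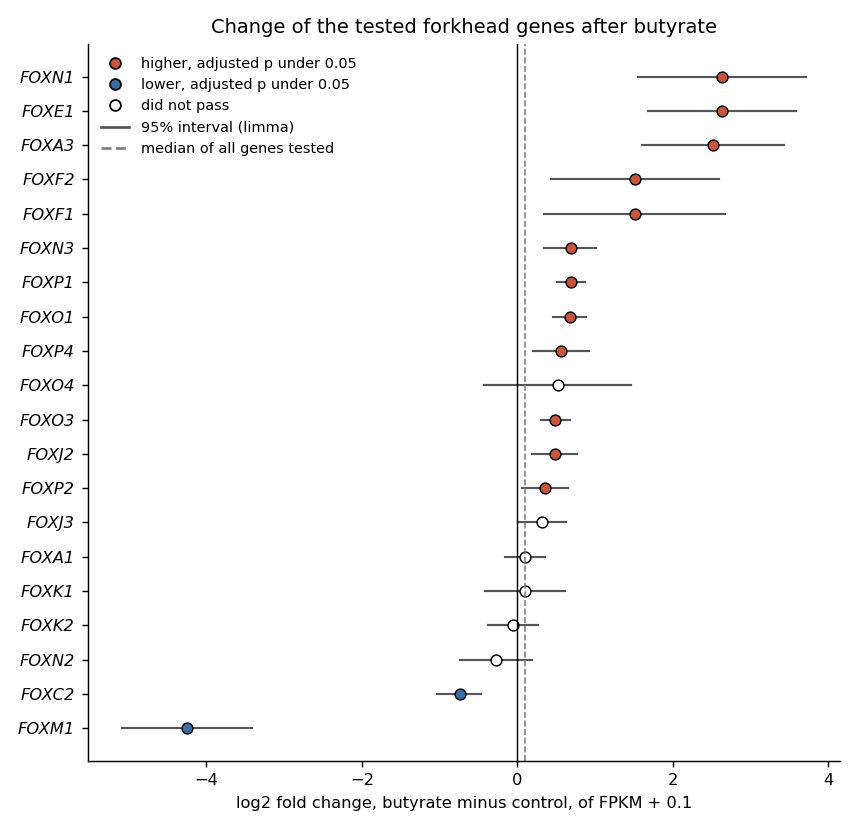
Log2 fold change (butyrate minus control, of FPKM + 0.1) of 20 tested forkhead genes with the 95% interval from limma; red points were higher and blue points lower at an adjusted p under 0.05, open points did not pass, and the dashed line is the median of all genes tested (0.10). FOXM1 at -4.25 and FOXC2 at -0.74 were lower, and FOXN1, FOXE1 and FOXA3 lay between 2.52 and 2.64; FOXD2, FOXH1 and FOXL2 are not drawn because neither group held more than 3 implied fragments.

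FOXF1, FOXC2 and FOXL1 lie within 56.9 kb on chromosome 18 (12379791 to 12436711), with the gene MTHFSD between FOXF1 and FOXC2. FOXF1, a factor of gut and lung mesenchyme, had 0, 0.0724 and 0.214 FPKM in control and 0.592, 0.355 and 0.298 FPKM after butyrate. The lowest butyrate culture was above the highest control culture, and the log2 fold change was 1.51 ± 0.51 (SE, limma, adjusted p = 0.0307). This call was lost in 7 of the alternatives, the replicate block (adjusted p = 0.0572) and quantile normalization (adjusted p = 0.295) among them, and also without butyrate culture 1 (0.102) or 2 (0.0627) or control culture 1 (0.0858) or 2 (0.0668). FOXC2, a factor of mesenchyme and lymphatic vessels whose cultures are shown because it was the other member that fell, a choice made after its values were seen, was at 6.92, 6.22 and 6.02 FPKM in control and 4.12, 3.7 and 3.52 FPKM after butyrate. All butyrate cultures lay below the controls, with a log2 fold change of -0.74 ± 0.12 (limma, adjusted p = 0.000953), and the call held under each alternative run. MTHFSD, chosen after its values were seen because it lies between them, had a log2 fold change of -0.42 ± 0.14 (limma, adjusted p = 0.0311). FOXL1, which marks mesenchymal cells beneath the gut epithelium and starts 7.2 kb from the end of FOXC2, was at most 0.105 FPKM and was not tested.

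FOXF2, the relative of FOXF1 on chromosome 23, was at 0, 0.116 and 0 FPKM in control and 0.318, 0.288 and 0.213 FPKM after butyrate. Groups did not overlap, and the log2 fold change was 1.52 ± 0.47 (SE, limma, adjusted p = 0.0229). The bounds imply 1 fragment over the control cultures and 8 over the butyrate cultures, a ratio of 8.07 with an exact 95% counting interval of 1.08 to 358, and the call was lost in 5 of the alternatives. These were quantile normalization (limma, adjusted p = 0.295) and leaving out butyrate culture 1 (0.0618) or 2 (0.0549) or control culture 1 (0.0646) or 3 (0.0653). Of the fibroblast markers, all 12 rows tested were higher, with COL5A1 listed on separate rows. The summed FPKM of the list was 6836 to 7108 in control and 10253 to 11121 after butyrate. In that sum FN1 rose from a mean of 1217 to 2374 FPKM, while its approximate implied fragments went from 30101 to 23132. FAP and PDGFRB were too low to test, and the fibroblast factor TCF21 was listed at 0 in every culture. Of 7 smooth muscle markers 1 was higher, 5 were lower and 1 did not pass, with sums of 6492 to 6820 and 2873 to 3481 FPKM. MYH11, among the lower markers, had a butyrate mean of 0.0762 FPKM and entered the test through the control cultures. Endothelial markers were low, with sums of 1.97 to 2.16 FPKM in control and 6.75 to 8.47 FPKM after butyrate, where 2 were tested and both were higher. Leukocyte markers summed to 5.68 to 7.41 and 8.97 to 11.1 FPKM, and of 4 tested 2 were higher and 2 did not pass. Beside the counts of these marker lists, 32.5% of all genes tested were higher and 25.9% lower. The part of these lists in the changes of FOXF1, FOXF2 and FOXC2 was not tested.

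Of the widely expressed FOXJ2, FOXJ3, FOXK1, FOXK2, FOXN2 and FOXN3, FOXJ2 and FOXN3 were higher and the rest did not pass. FOXJ2 averaged 4.58 ± 0.455 FPKM (SD, n = 3) in control and 6.43 ± 0.529 FPKM after butyrate and was higher (log2 fold change 0.48 ± 0.13 SE, limma, adjusted p = 0.0106). FOXJ3 averaged 4.88 ± 0.754 and 6.05 ± 0.144 FPKM and did not pass (log2 fold change 0.32, limma, adjusted p = 0.0739), although its groups did not overlap. After TPM rescaling it passed (adjusted p = 0.0224), as it did without control culture 1 (adjusted p = 0.0204). FOXN3, which represses cell cycle genes after checkpoint signals, rose from 2.76 ± 0.189 to 4.51 ± 0.525 FPKM, a log2 fold change of 0.69 ± 0.15 (limma, adjusted p = 0.00359). FOXN2 had 1.43 ± 0.184 and 1.17 ± 0.078 FPKM and did not pass (log2 fold change -0.27, limma, adjusted p = 0.282), except under quantile normalization (adjusted p = 0.0131). FOXK2, which binds BAP1 and was among the 5 highest forkheads in control, had 7.71, 7.12 and 5.76 FPKM there and 7.3, 5.97 and 6.55 FPKM after butyrate. Its groups overlapped, and the log2 fold change of -0.05 had a 95% interval of -0.37 to 0.27 and turned positive under TPM rescaling. FOXK1 averaged 1.51 ± 0.362 and 1.6 ± 0.157 FPKM, with a log2 fold change of 0.10 and an interval of -0.42 to 0.61, and turned negative under quantile normalization. FOXK2 was 3.04 to 6.07 times as high as FOXK1 in the control cultures and 3.35 to 4.87 times as high after butyrate.

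Summed over all 38 genes, forkhead FPKM was 97.7 ± 1.7 (SD, n = 3) in control and 128.6 ± 6.5 after butyrate, with ranges of 96.0 to 99.4 and 123.2 to 135.9 that did not overlap. Most of it came from few genes. FOXP1, FOXA1 and FOXO3 together gave 48.1% ± 1.3 of the sum in control and 50.8% ± 1.4 after butyrate. FOXO1 gave 7.1% ± 0.6 and 8.6% ± 0.5, whereas FOXC2 went from 6.6% ± 0.4 to 2.9% ± 0.1 and FOXM1 from 3.1% ± 0.6 to 0.1% ± 0.1. A mean of at least 1 FPKM was reached by 14 forkhead genes in control and 15 after butyrate. FOXM1 was above that level only in control, and FOXA3 and FOXE1 only after butyrate.

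**Figure D4:**
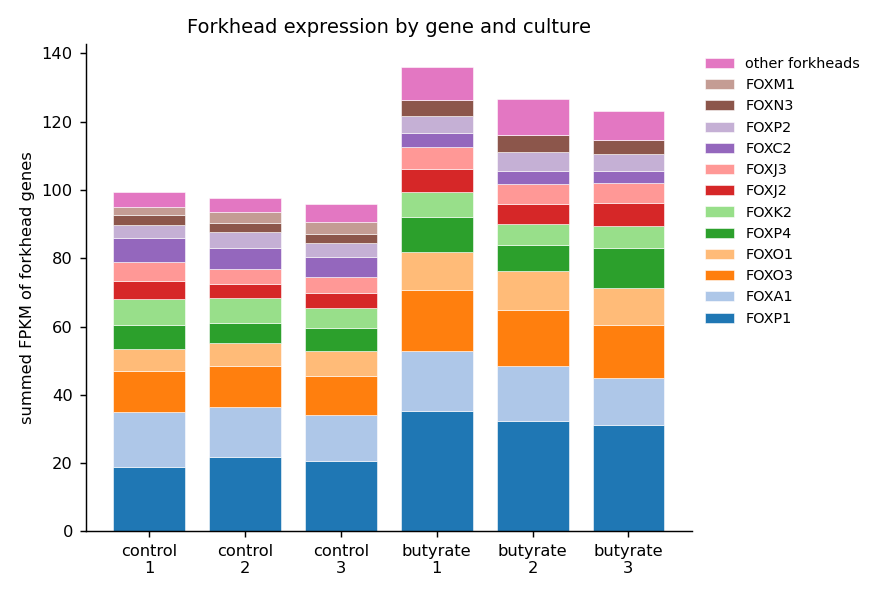
Summed FPKM of the forkhead genes in each of the 6 cultures, stacked by gene, with the 12 genes of highest control mean named and the remaining forkheads combined. The bars reach 96.0 to 99.4 in control and 123.2 to 135.9 after butyrate, FOXP1 is the largest block in each, and the FOXM1 block is visible in the control bars only.

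The remaining members were at the edge of detection. FOXD2 was above 0 in control culture 3 (0.59 FPKM) and in butyrate cultures 1 and 2 (0.174 and 0.299 FPKM). FOXH1, a partner of SMAD proteins in nodal signalling, reached at most 0.206 FPKM and FOXL2, a factor of the ovary, at most 0.665 FPKM. These 3 genes were tested and did not pass, but with at most 3 implied fragments in either group no fold is given. FOXJ1, the factor of motile cilia, was at 0, 0.224 and 0.188 FPKM in control and 0 in every butyrate culture and was not tested. Of 20 genes of motile cilia linked to FOXJ1, 12 could be tested, of which 3 were higher and 9 did not pass, with 5 higher at an unadjusted p under 0.05 and 0 lower in limma by either measure. The count of 3 higher lies near the 32.5% of all genes tested and is no result about the list. The dynein subunit DNAI1 was listed at 0, 0 and 0.0475 FPKM in control and at 1.55, 1.3 and 1.51 FPKM after butyrate (limma, adjusted p = 2.02e-05). With 0 implied fragments in control it entered the test through the butyrate cultures, and no fold is given. RSPH9, a radial spoke protein, went from 0.832, 0.716 and 1.74 FPKM to 6.35, 6.92 and 5.41 FPKM, a log2 fold change of 2.49 ± 0.30 (SE, limma, adjusted p = 0.000124). TPPP3, a tubulin-binding protein, went from 31.4, 22.4 and 30.2 FPKM to 85.2, 89.4 and 94.1 FPKM, a log2 fold change of 1.69 ± 0.12 (limma, adjusted p = 5.36e-06). The axonemal genes DNAH9 and SPAG17 were at 0 in all cultures.

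Among the 15 members that were not tested, FOXD3, FOXI1, FOXI2, FOXI3, FOXN4, FOXR1 and FOXR2 were listed at 0 in all 6 cultures. These include factors of neural crest, ionocytes and retina. FOXA2, FOXB1, FOXE3, FOXJ1, FOXL1, FOXP3 and FOXS1 were above 0 somewhere, at no more than 0.276 FPKM and 3 implied fragments in any culture. At this depth a difference between the groups was not detectable for any of them.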

How the data were processed

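RNA of 6 REPC cultures, 3 control and 3 butyrate, was analysed. The authors trimmed reads with Trim Galore 0.4.1 (base quality 20, length 20 bp), aligned them with STAR, kept uniquely mapped reads and deposited gene FPKM with bounds from Cufflinks. STAR and Cufflinks versions are not given in the sources used here. Rows were joined by position. Chromosomes were named from the study's supplementary gene positions (1139 of 1142 gene names lay on the majority chromosome). Bounds were read as 2 SD to give approximate fragments, of which 64.5% of 23279 values under about 10 lay within 0.05 of a whole number, so no count test was run. TNC and FOSL2, with failed estimates, were left out.

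Tests used limma 3.58.1 (R 4.3.3, mean-variance trend) on log2(FPKM + 0.1). They were run on simulated data with normal noise on the log scale. That noise does not imitate the steps of few fragments, so the check does not cover genes near 0.1 FPKM. Values by culture are printed for members that passed with a log2 fold change beyond 1, the 5 highest in control, FOXM1 and the FOXO genes. Related lists are described by their 3 largest rises and falls that passed. Some genes that these rules name are not reported here. Members and lists were chosen with earlier results of these data known. Alternatives were pseudocounts of 0.01 and 1, other filters, scalings and thresholds, no trend, a replicate block and each culture left out.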

Additional observations from a re-analysis of the deposited data

How the results depend on the processing

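For the 20 forkhead genes with a fold, 244 of the recomputed fold changes kept their direction and their side of the threshold, 23 lost the call, 3 gained it and 6 turned sign. FOXM1, FOXC2, FOXE1, FOXA3, FOXN1, FOXP1, FOXO1, FOXO3, FOXN3 and FOXJ2 kept their calls in every alternative in which they were tested. Fold sizes of members that were low in either group depended on the pseudocount. At pseudocounts of 0.01 and 1, the log2 fold change of FOXM1 was -5.85 and -1.91. That of FOXN1 was 4.89 and 0.75, and that of FOXA3 was 2.98 and 1.16. The fold of FOXN1 was larger than those of FOXE1 and FOXA3 at pseudocount 0.01 and smaller than both at pseudocount 1. Rescaling to TPM shifted the median log2 fold change of all genes by 0.12 and quantile normalization by -0.15. Over the tested forkhead genes the median was 0.48 in the main fit. It ranged from 0.23 under quantile normalization to 0.61 after TPM rescaling, where all genes had -0.05 and 0.23. Without the filter it was 0.28, against 0.13 over all genes, and at pseudocount 1 it was 0.29, against 0.07. The log2 fold changes that turned sign did not pass in either fit, and were -0.31 for FOXK1 and -0.61 for FOXO4 under quantile normalization, 0.07 for FOXK2 under TPM rescaling, and, with a culture left out, -0.06 for FOXK1 (range -0.06 to 0.26, negative without control culture 2) and 0.02 and 0.04 for FOXK2 (range -0.17 to 0.04, positive without butyrate culture 2 or control culture 1).

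With a log2 fold change beyond 1 also required, 5 forkhead genes were higher and 1 was lower, FOXO targets had 6 higher and 0 lower, FOXO regulators 3 higher and 3 lower, and corepressors 1 higher and 0 lower. With Benjamini-Hochberg in place of Bonferroni at a log2 fold change beyond 2, 3 forkhead genes were higher. Forkhead genes lower by the stricter thresholds numbered 0 with pseudocount 0.01 or 1, without the filter, without the trend, after TPM rescaling and with the replicate block, and 0 to 1 with a culture left out. Higher cilia genes numbered 5 after TPM rescaling and 3 to 5 with a culture left out (5 without control culture 3), and 1 was lower under quantile normalization. Higher corepressors numbered 4 with all cultures and 2 to 3 with a culture left out, with 2 without butyrate culture 1 or 3 or control culture 1 or 3. The cause of these shifts was not tested. No shared effect of the replicate number was detected, as deviations from the group means correlated across genes at 0.0228, -0.0043 and 0.0018 for replicates 1 to 3. These correlations cannot show whether same-numbered cultures were set up together. With the replicate block, 10 forkhead genes were higher and 2 lower. Members near 0.1 FPKM rest on few implied fragments, 4 in control and 17 after butyrate for FOXF1.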
